A study of Mus musculus with 12 samples.

Results

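In fetal mouse testis, 406 genes stood apart at E16.5 (named by embryonic day) in male germ cells from every other stage sampled. Of these, 325 peaked at E16.5: each of its 3 libraries lay at least 2-fold above each of the 9 libraries of E13.5, birth (P0) and postnatal day 3 (P3). The other 81 dipped: each E16.5 library lay at least 2-fold below each of those 9. A gene also had to reach a mean of at least 100 normalized counts in its highest stage, which 15037 of 55487 genes did. Peak genes were thus 2.16% and dip genes 0.539% of the genes with that level. A normalized count is a number of reads divided by a size factor of its library. Because E16.5 values chose these genes, their E16.5 values are described without a test, and nothing is read from those 2 shares.

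The cells were gonocytes, the precursors of spermatogonia, isolated from Mvh-Venus transgenic mice, in which a fluorescent reporter marks the germ line. Each stage has 3 libraries, named here by stage and the numbers 1, 3 and 4 of the table's columns. The labels conflict on genotype: by title and source name every sample is wild type (WT), but by its tag a sample of E13.5 or P0 is Morc1 (+/-) and one of E16.5 or P3 is Morc1 (-/-). Stage alone was used to form the groups, and a difference of E16.5 from E13.5 or P0 cannot be told apart from a difference in genotype if the tag is right; P3 carries the same tag as E16.5. Morc1 reads were abundant in the E16.5 and P3 libraries labelled Morc1 (-/-), as given below. The labels do not say that the libraries of a stage came from separate animals, so p-values measure the spread between these libraries only.

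As background, male germ cells stop dividing in mid to late gestation and stay arrested until shortly after birth. During arrest the germ line, having lost most of its DNA methylation, acquires a male methylation pattern. De novo DNA methyltransferases lay this pattern down, and PIWI proteins loaded with small piRNAs direct part of it to transposons. After birth the cells resume division and found the spermatogonial stem cells, which depend on growth factor signalling through receptor kinases and the ERK pathway.

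Recovered reads in genes numbered 40946616 to 51533747 per library. Germ cell markers (10 genes) summed to 305548 to 336046 normalized counts at E16.5, 146647 to 155579 at P0, 285581 to 296274 at E13.5 and 239012 to 256702 at P3. With the table's factors this sum was thus lowest at P0. Those factors were largest at P0 (mean 1.94, against 0.939 at E13.5, 1.13 at E16.5 and 1.01 at P3). The order of the stages in this sum thus depends on the scaling. With equal library totals the median log2 difference of these 10 markers between E16.5 and P0 fell from 1.15 to 0.49. Ddx4, the germ cell helicase gene also called Mvh, averaged 49639 ± 4831 at E16.5 (SD, n = 3, as for every ± here). Markers of other testis cells were present at lower levels. Sertoli cell markers (10 genes) summed to 13276 to 20380 at E16.5, against 22913 to 45548 at P0, 5312 to 7222 at E13.5 and 10028 to 12894 at P3. Leydig cell markers (8 genes) summed to 907 to 8424 at E16.5, 1760 to 7796 at P0, 774 to 992 at E13.5 and 610 to 639 at P3, and peritubular and interstitial markers (10 genes) to 2161 to 2852 at E16.5, 5259 to 5534 at P0, 247 to 318 at E13.5 and 2143 to 2594 at P3. In bulk samples fewer cells of a type and less RNA per cell cannot be told apart. The part of other cells in the results was not tested, beyond the marker values given beside them. The plot of all 406 genes by library shows the 3 E16.5 libraries apart from the other 9, which the rule requires.

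**Figure D1:**
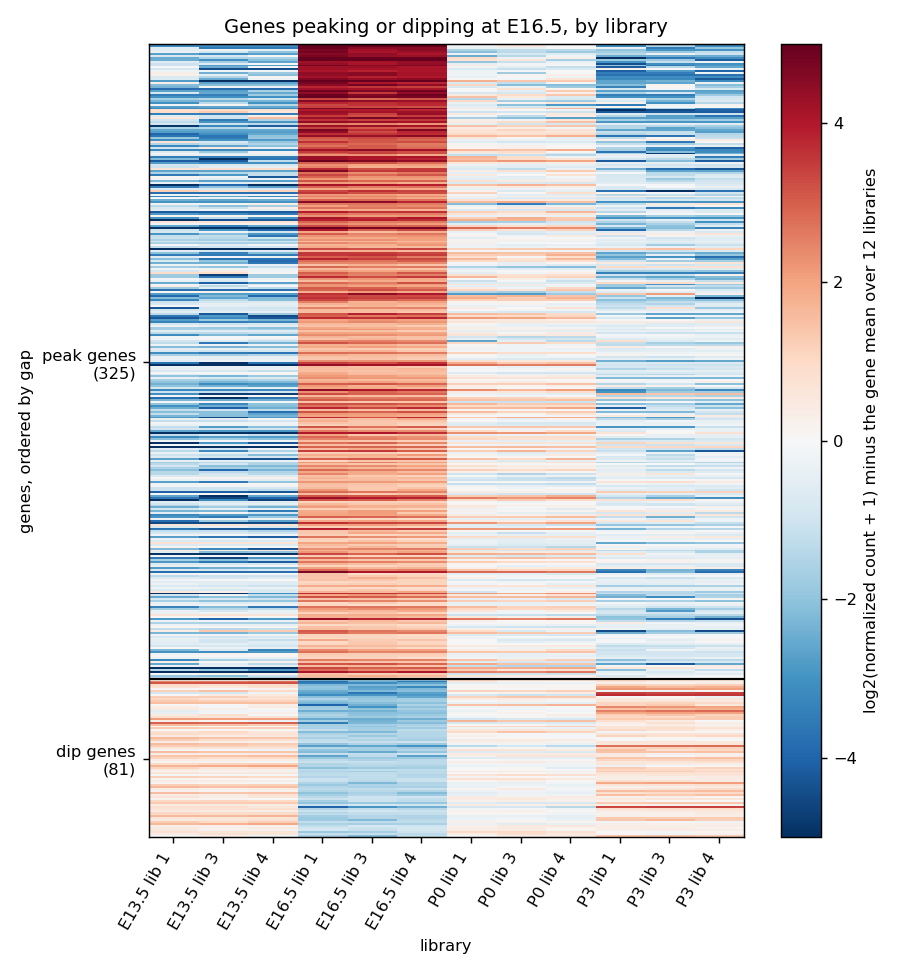
Heat map of the 325 peak genes (above the line) and 81 dip genes (below) in 12 libraries, 3 per stage; colour is log2(normalized count + 1) minus the gene's mean over the 12 libraries. The rule makes the E16.5 columns stand apart. The columns of the other stages, which the rule did not order, differ among themselves. P0 is the highest of those stages for 216 peak genes (66.5%). The same holds for 29.3% of the 15037 genes with a stage mean of at least 100.

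Over the whole table, E16.5 was compared with each other stage. Of 22384 genes tested, 2050 (9.16%) were higher at E16.5 than at each of the 3 other stages and 1327 (5.93%) were lower than at each (limma, Benjamini-Hochberg adjusted p under 0.05 in all 3 contrasts). edgeR called 2250 and 1285, sharing 2037 and 1270 of them. The split depended on the scaling: after scaling libraries to equal totals, 1735 of 23221 genes tested were higher and 2462 lower. These 2 counts are the background for list counts given below with equal totals against each other stage. The table's size factors averaged 1.94 at P0, 1.13 at E16.5, 1.01 at P3 and 0.939 at E13.5. Equal totals moved the median log2 difference of all genes between E16.5 and P0 from 0.01 to -0.68, and between E16.5 and E13.5 from 0.31 to 0.84. The same 2-fold rule turned on the other stages found 973 peaks and 2229 dips at E13.5, 756 and 622 at P0, and 477 and 283 at P3. E16.5 thus had the fewest genes of either kind under this rule.

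Peak genes included the de novo DNA methyltransferases Dnmt3a and Dnmt3c and their cofactor Dnmt3l, the PIWI protein gene Piwil4, and Morc1, an ATPase gene needed for transposon silencing. Morc1 (ENSMUSG00000022652, chr16:48431237-48630900, + strand in GRCm38) is given first because the genotype tag names it. At E16.5 Morc1 had 32916, 32890.2 and 28328 normalized counts in libraries 1, 3 and 4. Its values were 1621, 1830.3 and 1640.5 for E13.5, 7708, 7501 and 7279.9 for P0 and 10929, 10584 and 11129 for P3. The 3 E16.5 libraries lay above all others, and E13.5 was lowest. The E16.5 mean was 18.5 times that of E13.5, 4.19 times that of P0 and 2.88 times that of P3.

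Piwil4 (ENSMUSG00000036912, chr9:14696230-14740733, - strand) encodes MIWI2, the nuclear PIWI protein of fetal germ cells. At E16.5 Piwil4 had 32797, 37199.9 and 28776 normalized counts in libraries 1, 3 and 4. Its values were 593, 456 and 492 for E13.5, 6055, 5623 and 5126 for P0 and 3073, 3068 and 3506 for P3. The levels were highest at E16.5 and lowest at E13.5, with no overlap between any of the 4 stages. Its E16.5 mean was 64.1 times the E13.5 mean and 5.88 times the P0 mean. Dnmt3l (ENSMUSG00000000730, chr10:78041947-78063622, + strand), a catalytically inactive partner of the methyltransferases, averaged 17.8 ± 5.31 at E13.5 and 20342 ± 1795 at E16.5. At E16.5 Dnmt3l had 22397, 19541 and 19086 normalized counts in libraries 1, 3 and 4. Its values were 23.2, 17.4 and 12.6 for E13.5, 7139, 6195 and 6521 for P0 and 564, 514 and 502 for P3. E16.5 was highest and P0 next, with P3 between P0 and E13.5.

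Dnmt3a (ENSMUSG00000020661, chr12:3806007-3914443, + strand) was present at every stage, and its E16.5 mean of 52805 ± 4712 compared with 19793 ± 351 at P0, 13629.9 ± 789 at P3 and 5254 ± 149.6 at E13.5. Dnmt3c (ENSMUSG00000082079, chr2:153696652-153729907, + strand), a rodent duplicate of Dnmt3b that methylates young transposons, had 2341, 2303 and 2049 at E16.5 and 613, 550.5 and 556 at P0. Its levels were 48.6, 18.5 and 45.2 at E13.5 and 32.0, 44.2 and 35.4 at P3, 2 stages that overlapped. Of the 50-base words in its exons, 23.6% also occur in other genes, so reads may have been shared with a copy. Under equal library totals Dnmt3a and Dnmt3l no longer met the 2-fold rule, with log2 gaps between the lowest E16.5 and the highest other library of 0.64 and 0.83.

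Other genes of these pathways were compared over the whole table. Of 27 genes of the piRNA pathway and transposon silencing, 17 were higher at E16.5 than at each other stage and none was lower, against 9.16% and 5.93% of all genes tested (limma, Benjamini-Hochberg adjusted p under 0.05). By single contrasts, 19 of the 27 exceeded their E13.5 level (45.5% of all genes did), 22 their P3 level (35.2%) and 27 their P0 level (33.4%). With equal totals 16 were higher than at each other stage and none lower, and 20 were higher than at P0 (14.8% of all genes). The median log2 difference from P0 was 1.16 in the list and 0.01 over all genes. Only Piwil4 and Morc1 of the 27 met the 2-fold rule for a peak, and their place among the 17 was fixed by it. Spocd1, which links the nuclear PIWI protein to DNA methylation, averaged 24685 ± 2125 at E16.5, 14854 ± 347 at P0, 774 ± 102 at P3 and 11.7 ± 8.19 at E13.5. The helicase gene Tdrd9 had means of 21131, 11661, 4847 and 242 in the same order. Both had a P0 mean more than 0.5 times that of E16.5, so neither met the rule. With equal totals their log2 differences from P0 were 0.07 and 0.19, neither past the threshold (limma).

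Of 18 tested genes of DNA methylation and demethylation, only the 3 peak genes above were higher at E16.5 than at each other stage and none was lower. With equal totals 3 others were lower than at each other stage (limma). By single contrasts with the table's factors, 7 were higher and 9 lower than at E13.5 (45.5% and 34.6% of all genes). Against P3 these were 8 and 10 (35.2% and 34.2%), and against P0 8 and 1 (33.4% and 27.6%). Of 32 histone methylation enzymes and readers, 9 were higher and 3 lower than at each other stage (6 and 6 with equal totals), and none met the 2-fold rule. The higher ones included Kdm1b, an H3K4 demethylase, at 29057 ± 3097 against 22668 ± 1578 at P0 and 3999 ± 473 at E13.5, but with equal totals its log2 difference from P0 turned to -0.31. Another was Kdm4a, an H3K9 and H3K36 demethylase, at 3079.8 ± 239 against 1533 ± 202 at P0. The lower ones were Suz12, a core subunit of Polycomb repressive complex 2, Cbx3, which encodes an HP1 protein, and Setdb2. Suz12 averaged 766 ± 87.7 at E16.5 and 1079 ± 115 at P0, whereas its partner Eed was among the higher genes, at 17451 ± 1249 and 8826 ± 674. The size of these differences depended on the scaling. Between E16.5 and P0 the log2 difference was 1.01 for Kdm4a, 0.98 for Eed and -0.50 for Suz12 with the table's factors. With equal totals it was 0.35, 0.32 and -1.16.

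**Figure D2:**
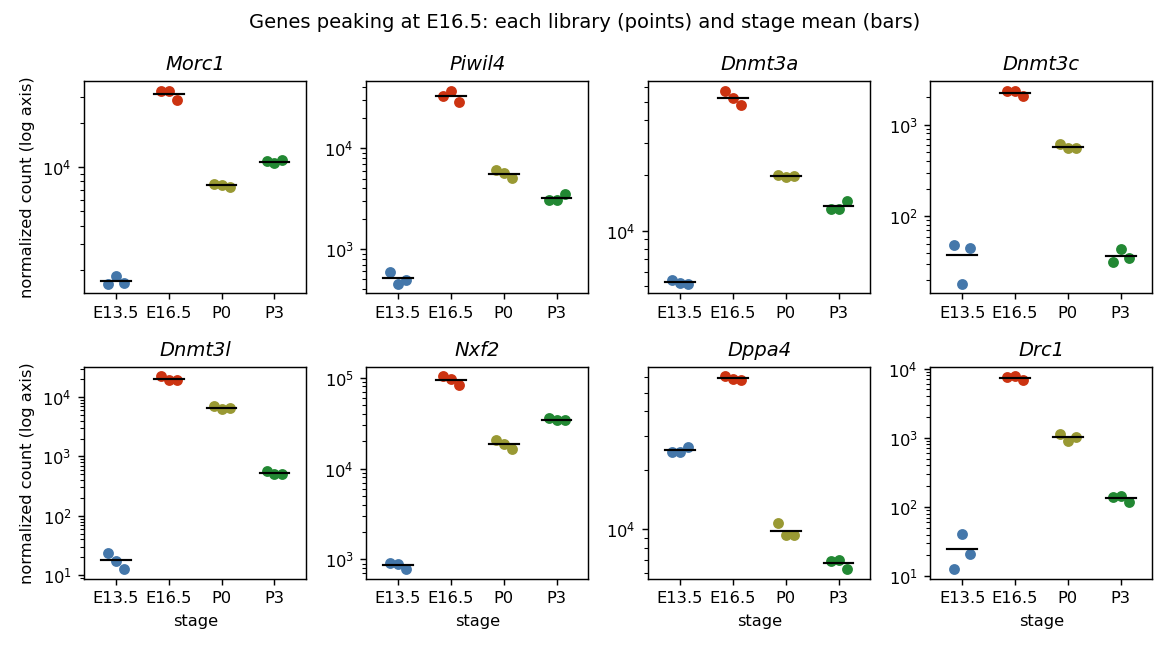
Normalized counts of 8 peak genes at E13.5, E16.5, P0 and P3 (log axes); points are libraries and bars are stage means, n = 3. Every E16.5 point lies above all others of its gene, E13.5 is the lowest stage for Morc1, Piwil4, Dnmt3a, Dnmt3l, Nxf2 and Drc1, and P3 is the lowest for Dppa4.

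The most abundant peak genes were Nxf2, Phf13, Dppa4, Dnmt3a, Nelfcd and Mtmr14. Nxf2 (chromosome X, ENSMUSG00000009941, chrX:134944526-134964754, - strand), a testis relative of the mRNA export factor gene Nxf1, had 103522, 95842 and 83802 in the E16.5 libraries. It had 916, 897 and 781 for E13.5, 20433, 18612 and 16503 for P0 and 35912, 33934 and 33798 for P3. The E16.5 mean was 109 times that of E13.5 and 2.73 times that of P3, the next stage. Per kilobase of exon, the normalized counts at E16.5 were 36756 for Nxf2, 35489 for Dppa4, 25060 for Phf13, 4843 for Morc1 and 3173 for Dnmt3a.

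Phf13, which encodes a reader of methylated histone H3, rested on a smaller difference: 80318 ± 4255 at E16.5 against 34849 ± 1790.0 at P3 and 33870.2 ± 1112 at E13.5. Dppa4, a pluripotency-associated chromatin gene, averaged 58982 ± 1405 at E16.5, 25360.0 ± 836 at E13.5, 9852 ± 766 at P0 and 6729 ± 399 at P3. Of its 50-base words, 31.3% also occur in other genes. Among 21 pluripotency-associated genes it was the single peak, and 18 of the 21 were lower at E16.5 than at E13.5, where 34.6% of all genes were lower. Nelfcd, a subunit of the complex that pauses RNA polymerase II, averaged 48458 ± 5984 at E16.5 and 18638 ± 963 at E13.5, its next stage. Mtmr14, a phosphoinositide phosphatase gene, averaged 45911 ± 4981 and 13827 ± 1316 at P0, and did not meet the rule under equal library totals.

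The peak genes with the widest gap to the other stages had low levels outside E16.5. The gap is the log2 ratio of the lowest E16.5 library to the highest other library, with 1 added to each. Klhdc7a (chr4:139960220-139968026, - strand), a kelch-repeat gene, had 363, 254 and 254 at E16.5 and at most 10.1 in the other 9 libraries, for a gap of 4.52. Serpina3c (chr12:104146382-104153870, - strand), a serine protease inhibitor gene, had 861, 589.5 and 619.7 at E16.5, and the highest other library held 27.7. Tmc2, a channel gene of hair cells, averaged 747 ± 71.7 at E16.5 and 18.4 ± 10.4 at P0, its next stage. These genes were near the detection floor at some stages, where a floor means 3 reads or fewer in every library of a stage. Of the 325 peak genes, 50 were at the floor at E13.5, 28 at P3 and 2 at P0.

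Peak genes included Cdh12 and Cntn6, adhesion genes of neurons. Cdh12, a cadherin gene of neurons, had 575, 524 and 556 at E16.5, 30.3, 22.8 and 21.7 at P0 and at most 9.50 in any E13.5 or P3 library. Cntn6, a contactin gene of neurons, had 1494, 1564 and 1163 at E16.5 and no read at E13.5, so that the E16.5 mean was at least 431-fold higher against a floor of 3 reads per library. Cntn6 had 464, 422 and 354 at P0 and 143, 98.2 and 159 at P3, and it did not meet the rule under equal totals, with a gap of 0.79. Of 40 genes of cell adhesion and axon guidance, Cntn6 was the single peak. In this list 2 (Cntn6 and Chl1) were higher at E16.5 than at each other stage and 2 were lower. These counts are not above the 9.16% and 5.93% of all genes tested, and with equal totals they were 1 and 3 (limma). Of the 40, 27 were lower at E16.5 than at P0, against 27.6% of all genes (34 with equal totals, against 54.9%).

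Other genes with wide gaps were Gzma, Arl13a, Ighe, Slc39a5, Abcb11, Sult2a5, Cyp4a12b and Olfr585. Abcb11, the bile salt export pump gene of liver, had 2008, 1676 and 1551 at E16.5, 123, 94.0 and 87.4 at P0 and at most 5.89 at E13.5 and P3. Slc39a5, a zinc transporter gene, averaged 417 ± 42.7 at E16.5 and was at the floor at P3, where the ratio was at least 137. Arl13a, a small GTPase gene on chromosome X, averaged 228 ± 27.7 at E16.5 and at most 6.73 at another stage. In Sult2a5, Cyp4a12b and Olfr585, 34.5%, 49.4% and 23.8% of the 50-base words also occur in other genes, so their identity within their gene families is uncertain.

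A set of peak genes is known mainly from lymphocytes. A list of such genes, written after the values were seen, had 27 tested members; 13 were peaks and 1 (Lat) was a dip. The highest stage mean was at E16.5 in 19 of the 27 (70.4%; all genes tested 19.3%). Nothing is read from such shares, here or for the lists below that were also written with the values in view. Ighm, the constant region of the immunoglobulin mu chain, had 8063, 8308 and 7274 at E16.5, 916, 984 and 885 at E13.5, 465, 489 and 427 at P0 and 13.6, 22.6 and 30.4 at P3. Cd2, an adhesion receptor gene of T and NK cells, had 2843, 2335 and 2451 at E16.5 and 528, 429 and 410.3 at P0, its next stage. Dntt, which encodes the polymerase that adds bases at antigen receptor joints, had 1157, 775 and 800.2 at E16.5, 216, 168 and 149.6 at P0 and none at E13.5. Gzma, a granzyme gene of killer cells, had 401, 376 and 373 at E16.5 and at most 24.2 in any other library.

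The list was divided. Besides those named, the peaks were Cd3d, Trac, Lck and Ptcra of T cells, Blk of B cells, Gzmc, Nkg7 and Klrb1 of killer cells, and Cd74. Their E16.5 means ran from 105 (Nkg7) to 1580.0 (Lck). Cd3e, Cd247, Zap70 and Cd8a had higher means at P0 than at E16.5. Ptprc, which encodes the pan-leukocyte protein CD45, had 0, 5.58 and 16.6 in the E16.5 libraries and 59.0, 60.3 and 43.0 at P0. Rag1, of the antigen receptor recombinase, had 0, 1.86 and 1.58, and Cd3e, a T cell receptor subunit gene, had 63.9, 50.2 and 41.9 at E16.5 against 150.4, 176 and 142 at P0. The summed level of the list was 14994 to 17649 at E16.5, 1969 to 2036 at E13.5, 3639 to 3947 at P0 and 3585 to 3924 at P3. Red and white blood cell markers (8 genes) summed to 1791 to 2545 at E16.5, 1649 to 2622 at P0, 68.4 to 443 at E13.5 and 310 to 559 at P3, with Hbb-y at 0 in all E16.5 libraries. The part of blood cells in these values was not tested. Lat, the T cell adaptor gene, went the other way, with 134, 86.5 and 116 at E16.5 against 2449.7, 2400.1 and 2266 at P3.

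Hepatocyte genes, likewise listed after the values were seen, were also among the peaks. Of 20 tested, 9 were peaks, and 12 (60%; all genes tested 19.3%) had their highest mean at E16.5. Besides Abcb11 and Serpina3c they included Gulo, the enzyme gene for the last step of vitamin C synthesis, at 2793 ± 248 against 709 ± 21.1 at P0, and Mat1a, a methionine adenosyltransferase gene, at 1509.8 ± 28.7 against 593 ± 98.8. Alb and Ttr, abundant transcripts of fetal liver, had 1.91, 3.72 and 1.58 and 0, 1.86 and 3.17 at E16.5. Afp, by contrast, averaged 2976 ± 547 at E16.5 and 7915 ± 1130.1 at P3. The list summed to 14146 to 16744 at E16.5, 8916 to 10046 at P0, 14674 to 16778 at P3 and 1082 to 1176 at E13.5.

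Genes of the axoneme, the microtubule core of cilia and sperm tails, formed another list of this kind, with 10 peaks among 36 tested. The highest mean was at E16.5 in 20 (55.6%; all genes tested 19.3%) with the table's factors. Against P0, 17 of the 36 were higher and 5 lower at E16.5 (33.4% and 27.6% of all genes, limma). With equal totals 13 were higher and 16 lower than at P0 (14.8% and 54.9% of all genes). Drc1, a subunit of the nexin-dynein regulatory complex, had 7594, 7712 and 6915 at E16.5, 1115, 896 and 1041 at P0, 141, 143 and 119 at P3 and 12.7, 41.4 and 21.0 at E13.5. Akap4, the main scaffold gene of the sperm fibrous sheath, had 1119, 1054 and 940.3 at E16.5 and 176, 215 and 179.5 at P0. Nme8, a dynein arm gene, had 1042, 803 and 1032 at E16.5 and no read at E13.5. Foxj1, the main transcription factor of motile cilia, averaged 9.99 ± 2.22 at E16.5, 25.8 ± 7.66 at E13.5 and 42.6 ± 6.98 at P3.

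Of 25 interferon response genes in a further list of that kind, 6 were peaks and 11 (44.0%; all genes tested 19.3%) had their highest mean at E16.5. Oas1a, an antiviral oligoadenylate synthetase gene, had 560.1, 531 and 522 at E16.5 and 197, 222 and 162 at P3, but 57.6% of its 50-base words also occur in other genes. Ifi27, a mitochondrial interferon-induced gene, averaged 9238 ± 647 at E16.5 and 3440.5 ± 207 at E13.5. Ube2l6, the conjugating enzyme gene for ISG15, had 1483, 869 and 1053 at E16.5 and 289.8, 294 and 261 at P0. Cd68, a lysosomal glycoprotein gene of macrophages, was a peak with 1049, 863 and 902 at E16.5 and 279, 246 and 260.1 at P3. The macrophage genes Csf1r, Adgre1 and C1qa averaged 57.3, 47.5 and 2.59 at E16.5. Markers of macrophages, mast cells and endothelium (10 genes, Cd68 included) summed to 1571 to 1666 at E16.5, 2298 to 3593 at P0, 4413 to 5156 at E13.5 and 813 to 1068 at P3. From E13.5 to E16.5, 8 of the 9 tested markers rose and 1 fell (limma), where 45.5% and 34.6% of all genes did. The median log2 difference of the markers was 3.73, against 0.31 over all genes. The larger sum at E13.5 thus did not follow most of these markers. Whether macrophages contributed was not tested.

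Dip genes included transcription factors and signalling genes of spermatogonia. Of 27 genes of spermatogonial stem cells and their differentiation, 4 were dips (Sohlh2, Dmrt1, Pou3f1 and Etv4), 7 were lower at E16.5 than at each other stage and 1 was higher, against 5.93% and 9.16% of all genes tested (limma). The 4 dips are among the 7 by the rule. With equal totals 10 were lower and 1 higher, and of all 23221 genes tested 2462 were lower and 1735 higher. Sohlh2 (ENSMUSG00000027794, chr3:55182028-55209957, + strand), a basic helix-loop-helix factor of spermatogonia, had 699, 725 and 767 at E16.5. It had 17326, 16719.6 and 16834 for E13.5, 2069.8, 2301 and 2199 for P0 and 10124, 10170.1 and 9776 for P3. The 4 stages did not overlap, and the E13.5 mean was 23.2 times that of E16.5.

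Dmrt1 (ENSMUSG00000024837, chr19:25505618-25604329, + strand), a transcription factor gene of the testis, had 2365, 2609 and 2419 at E16.5 and 20041, 19165 and 19708 at P3, with 7841, 7506 and 7675 at E13.5 and 5482, 6051 and 5562 at P0. Pou3f1, a POU factor of stem cell self-renewal, had 82.1, 42.8 and 82.3 at E16.5, 299.8, 287 and 455 at E13.5, 553, 606 and 712 at P0 and 5842, 5407 and 5785 at P3. Its P3 mean was 82.2 times the E16.5 mean. Etv4, an ETS factor of the FGF pathway, had 46.8, 52.1 and 39.6 at E16.5 and 123, 169.5 and 126 at P0. P3 was the highest stage for Dmrt1, Pou3f1 and Etv4, and E13.5 for Sohlh2.

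Dips also held feedback inhibitors of ERK signalling. Dusp4, a nuclear phosphatase that inactivates ERK, had 38.2, 49.3 and 68.1 at E16.5, against 3702, 3741 and 3925 at E13.5, 313, 340.2 and 344 at P0 and 543, 471 and 541 at P3. Spry4, a receptor tyrosine kinase inhibitor gene, had 13.4, 28.8 and 41.9 at E16.5 and 128, 127 and 87.4 at P0, its lowest other stage. Ccnd1, the D-type cyclin gene of the entry into the cell cycle, averaged 76.7 ± 6.44 at E16.5, 313 ± 30.8 at P0, 741 ± 129.5 at E13.5 and 7383 ± 439.9 at P3, and 23.4% of its exon bases overlap LTO1. Among 19 tested genes of ERK feedback and targets, a list written after the values were seen, 4 were dips (with Etv4) and 16 (84.2%; all genes tested 13.7%) had their lowest mean at E16.5. Dusp6, the cytoplasmic ERK phosphatase gene, averaged 475 ± 191 at E16.5 and 1634 ± 399 at P0. Of 24 proliferation genes, 23 were lower at E16.5 than at E13.5 (34.6% of all genes), while 16 were higher and 5 lower than at P0 (33.4% and 27.6% of all genes). With equal totals 11 were higher and 10 lower than at P0, where 14.8% and 54.9% of all genes were. Ccnd1 alone of the 24 was a dip.

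Sterol synthesis genes formed a further group. Of 23 tested in a list written after the values were seen, 3 were dips and 16 (69.6%; all genes tested 13.7%) had their lowest mean at E16.5. Lss, which encodes the enzyme that closes the sterol rings, had 487, 519 and 522 at E16.5 against 1188, 1229 and 1237 at P0. Cyp51, the lanosterol demethylase gene, had 734, 915 and 957 and 2145, 2177 and 2042. Hmgcs1, an early enzyme gene of the mevalonate pathway, had 3839.9, 4300.5 and 3958 and 9836, 9915 and 8801.

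**Figure D3:**
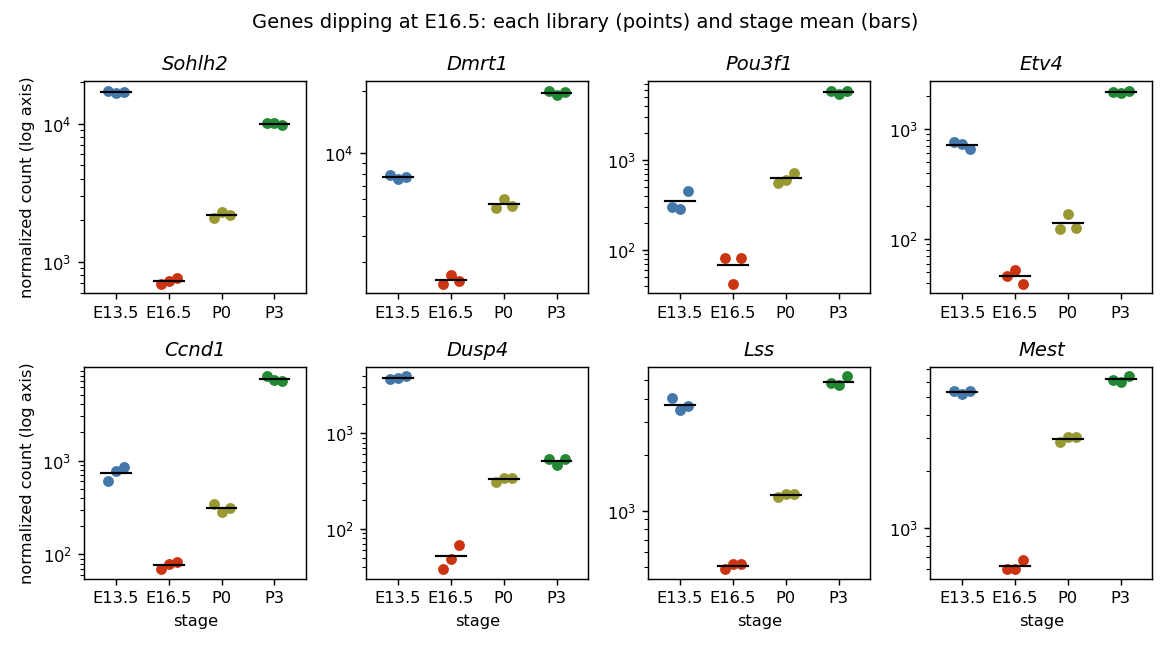
Normalized counts of 8 dip genes at E13.5, E16.5, P0 and P3 (log axes); points are libraries and bars are stage means, n = 3. Every E16.5 point lies below all others of its gene; P0 is the next lowest stage except for Pou3f1, where E13.5 is.

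Other dips had various roles. Mest, a paternally expressed imprinted gene, had 603, 601 and 669.6 at E16.5, 2864, 3055 and 3057 at P0, 5361, 5167 and 5352 at E13.5 and 6162, 6029 and 6433 at P3, and 23.1% of its exon bases overlap Copg2. It was the single dip of 28 imprinted genes tested, of which 3 were higher and 2 lower at E16.5 than at each other stage, near the 9.16% and 5.93% of all genes; with equal totals none was higher and 3 were lower (limma). Pcbd1, a pterin dehydratase gene, had 28.6, 33.5 and 31.7 at E16.5 and at least 182.8 in every other library, the largest gap of a dip. Slc35d3, a nucleotide sugar transporter family gene, had 3.82, 11.2 and 4.75 at E16.5 and at least 59.8 elsewhere. Syt6 and Otop1, a synaptotagmin gene and a proton channel gene, averaged 8.52 ± 4.41 and 17.0 ± 2.41 at E16.5. The dips with the highest level in another stage were Dmrt1, Sohlh2, Ybx3 and Cmpk1. Ybx3, an mRNA-binding cold shock protein gene, averaged 1365 ± 132 at E16.5 and 12616 ± 281 at E13.5, and Cmpk1, a nucleotide kinase gene, 2495 ± 81.4 at E16.5 and 11706 ± 1157 at P3.

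Further lists held few members, and several of their counts lie near the 9.16% higher and 5.93% lower of all genes tested. Among 35 signalling receptors and feedback genes, 8 were lower at E16.5 than at each other stage and 1 was higher (limma), with Spry4 as the single dip. Of 22 genes of male germ cell fate, 4 were lower and 1 higher, among them Dazl, an RNA-binding gene of germ cell identity, at 35953 ± 3072 against 59234 ± 2704 at P0 and 139041 ± 3787 at E13.5. Of 20 cell cycle arrest genes, 4 were lower and 1 higher, and of 25 meiotic prophase genes 1 and 3. Of 20 retinoic acid genes none was lower and 2 were higher, and of 19 apoptosis genes 2 and 3. With equal totals the lower and higher genes numbered 7 and 0 for arrest, 5 and 1 for meiosis, and 4 and 2 for apoptosis. Of all 23221 genes tested with that scaling, 2462 were lower and 1735 higher, so lower genes were more frequent there in the whole table as well. These lists held no peak or dip beyond Spry4.

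Across all members, the peaks' E16.5 mean was a median of 3.40 times the next highest stage mean (range 2.13 to 49.2), and 40 of 325 reached 10-fold. The lowest other stage mean of the dips was a median of 2.79 times the E16.5 mean (range 2.18 to 11.2), and 1 of 81 reached 10-fold. Peaks were 269 protein-coding genes (82.8%) and 26 long intergenic noncoding RNAs (8%), whereas dips held 79 protein-coding genes (97.5%). Among all genes with that level, 91.6% were protein coding and 1.77% long intergenic noncoding. Peak genes took 3.46% ± 0.106 of reads at E16.5, against 0.521% ± 0.00174 at E13.5, 1.44% ± 0.0323 at P0 and 0.751% ± 0.0301 at P3. Of the peaks, 101 had an E16.5 mean under 300.

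Near the threshold, Gab3 and Renbp were the peak genes closest to it, with ratios of the nearest libraries of 2.00 each, and Cdh20 and Cplane1 lay just outside at 1.99 each. Among dips, Pank1 and Nxt2 lay just inside, at 2.00 and 2.01, and Prkx and Npepl1 just outside, at 1.99 and 1.98.

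How the members varied among the 3 other stages was compared, since the rule did not order those. The rule did limit them: every other library of a peak gene lies at least 2-fold below E16.5. The 15037 genes with the rule's level include 5701 highest at E13.5 and 3072 highest at P0, which cannot be peaks. Part of any difference between members and that background may thus follow from the selection. Members had to reach a stage mean of 100, so the 15037 genes that did are given beside all genes tested (limma, Benjamini-Hochberg adjusted p under 0.05). In P0 against E13.5, 208 of 325 peak genes (64.0%) were higher at P0 and 47 (14.5%) lower. Of all genes tested 45.7% were higher and 40.5% lower, and of the 15037 genes 36.7% and 54.2%. The median log2 difference of peak genes was 1.30 (1.28 with the 51 peak genes that had a stage at the floor set to 3 reads per library there), against 0.20 over all genes tested and -0.51 over the 15037. Among dips, 12 of 81 (14.8%) were higher and 47 (58.0%) lower at P0, with a median of -0.55, so that the share lower and the median lay near those of the 15037 genes.

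In P3 against P0, 37 peak genes (11.4%) were higher and 204 (62.8%) lower at P3. Of all genes tested 40.1% were higher and 36.4% lower, and of the 15037 genes 54.3% and 30.4%. Among dips 53 (65.4%) were higher and 9 (11.1%) lower, with a median of 0.64 against 0.46 over the 15037 genes. In P3 against E13.5, 136 peak genes (41.8%) were higher and 84 (25.8%) lower, where 39.2% and 31.2% of all genes tested and 39.4% and 40.5% of the 15037 were, and 34 dips were higher and 29 lower. P0 was the next highest stage for 216 peak genes (66.5%) and the next lowest for 50 dips (61.7%). Of the 15037 genes, P0 was the highest of these other stages for 29.3% and the lowest for 50.1%.

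These counts moved with the scaling. After scaling to equal totals, 287 peak genes were higher at P0 than at E13.5 and 8 lower, while 51 dips were higher and 19 lower, so that the direction for dips turned. That scaling moved the median of the 15037 genes from -0.51 to 0.66. Relative to that median, peaks stood 1.81 above with the table's factors and 1.77 above with equal totals, and dips 0.04 below in both.

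**Figure D4:**
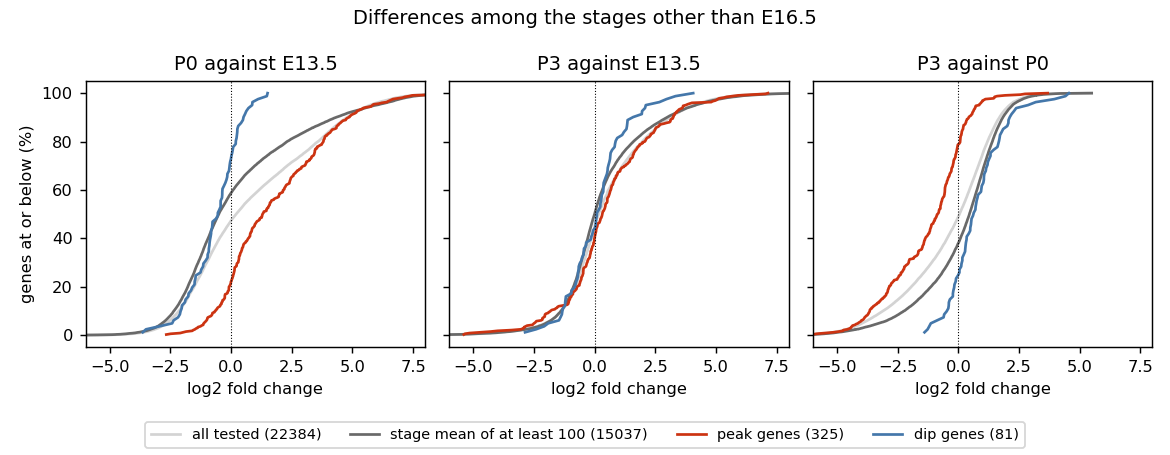
Cumulative share of genes by log2 fold change for P0 against E13.5, P3 against E13.5 and P3 against P0, for all 22384 genes tested, the 15037 genes with a stage mean of at least 100, 325 peak genes and 81 dip genes. Peak genes lie to the right of both backgrounds at P0 against E13.5 (median 1.30 against 0.20 and -0.51) and to the left at P3 against P0, while the median of dip genes lies near that of the 15037 genes.

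Single genes were compared among the other stages with limma and Benjamini-Hochberg adjustment. From E13.5 to P0, Dnmt3l rose (log2 fold change 8.50, SE 0.15, adjusted p 2.09e-16, limma). From P0 to P3 it fell (log2 difference -3.65, limma adjusted p 1.72e-12). Piwil4 likewise rose from E13.5 to P0, with a log2 difference of 3.45, and fell from P0 to P3, with one of -0.80. Morc1 rose from E13.5 to P0 by 2.14 on the log2 scale. Its P3 level exceeded that of P0 by 0.54 with the table's factors, but the difference was -0.30 with equal totals. For Dnmt3c, P3 did not differ detectably from E13.5 (log2 fold change 0.09, SE 0.265, limma adjusted p 0.771). Dppa4 was lower at P0 than at E13.5, at -1.37. Sohlh2 was lower at P0 than at E13.5 (-2.95) and higher at P3 than at P0 (2.19), and Ccnd1 was higher at P3 than at E13.5 by 3.33.

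Promoters were compared by the 250 bases before the RefSeq start (GRCm38.p6), which matched 221 of the 325 peak genes and 60 of the 81 dips. A ratio of CpG dinucleotides observed to those expected from base content of at least 0.6 was found in 32.1% of peak promoters, 68.3% of dip promoters and 64.4% of the 11219 matched promoters of genes with the same minimum level. Peak promoters held a median of 7 CpG, dips 19 and the 11219 promoters 15. The difference held at both levels: 9.73% of peak genes with an E16.5 mean under 1000 passed that ratio against 48.2% of all genes whose highest mean was 100 to under 1000, and 55.6% against 76.2% at 1000 or more. Sequences are shown for the peaks Klhdc7a and Serpina3c, at chr4:139968027-139968276 (- strand) and chr12:104153873-104154122 (- strand), and for the dips Pcbd1 and Slc35d3, at chr10:61089081-61089330 (+ strand) and chr10:19851460-19851709 (- strand), which had the widest gaps of the named genes. They are written 5′ to 3′ along the gene, with each CG in capitals.
Klhdc7a: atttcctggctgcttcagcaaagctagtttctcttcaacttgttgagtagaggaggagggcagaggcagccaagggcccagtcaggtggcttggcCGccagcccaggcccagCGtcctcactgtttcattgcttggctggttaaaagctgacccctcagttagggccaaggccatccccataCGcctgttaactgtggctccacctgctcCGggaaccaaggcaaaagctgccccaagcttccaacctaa
Serpina3c: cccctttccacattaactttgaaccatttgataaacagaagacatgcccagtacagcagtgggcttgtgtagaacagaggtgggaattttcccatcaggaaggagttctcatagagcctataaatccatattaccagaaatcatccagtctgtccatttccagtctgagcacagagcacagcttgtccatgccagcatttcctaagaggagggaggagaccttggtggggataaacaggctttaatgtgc
Pcbd1: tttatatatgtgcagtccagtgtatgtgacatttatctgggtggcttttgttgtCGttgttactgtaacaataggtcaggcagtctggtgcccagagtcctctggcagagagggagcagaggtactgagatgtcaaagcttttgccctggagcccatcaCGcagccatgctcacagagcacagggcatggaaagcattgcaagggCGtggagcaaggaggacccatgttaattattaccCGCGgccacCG
Slc35d3: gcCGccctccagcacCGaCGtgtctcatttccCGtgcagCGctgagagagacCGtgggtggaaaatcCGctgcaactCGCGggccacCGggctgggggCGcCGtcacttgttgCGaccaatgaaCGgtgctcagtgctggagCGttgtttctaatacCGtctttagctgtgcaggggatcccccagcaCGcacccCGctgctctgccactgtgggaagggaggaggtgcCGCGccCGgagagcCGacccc
Klhdc7a has 4 CG, Serpina3c 0, Pcbd1 6 and Slc35d3 22 in these 250 bases. Both peaks thus lie below the peaks' median of 7, and Pcbd1 lies below the dips' median of 19.

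**Figure D5:**
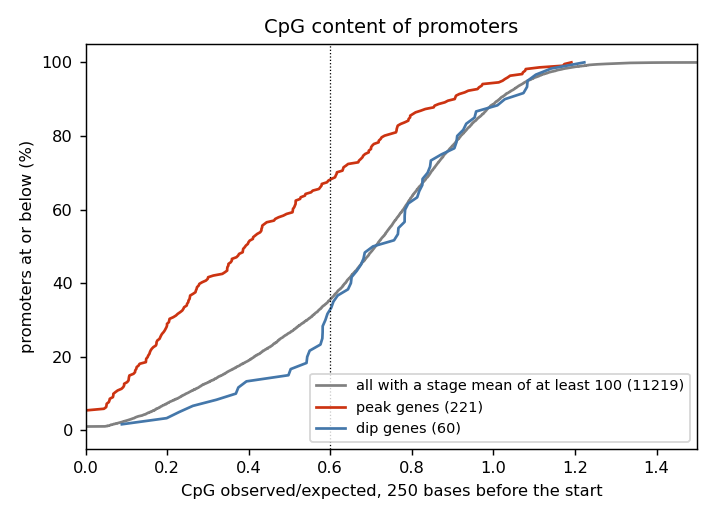
Cumulative share of promoters by CpG observed/expected ratio in the 250 bases before the start, for 221 peak genes, 60 dip genes and 11219 genes with a stage mean of at least 100; the dotted line is 0.6. The peak curve lies to the left, with 32.1% of promoters at 0.6 or more, and the dip curve lies near that of all genes.

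Single motifs were counted on both strands. GGGCGG, the core of the GC box, occurred in 34.8% of peak, 78.3% of dip and 58.2% of the 11219 promoters, and it overlaps with CpG content by its letters. CACGTG, the E-box core, occurred in 10.9%, 6.67% and 8.53%, against 6.04% of all 27025 promoters in the table. The promoter of Nxf2, the most abundant peak gene, at chrX:134964755-134965004 (- strand), held 5 copies of CACGTG, which are in capitals below and were found in as many copies in 2 of the 27025 promoters.
Nxf2: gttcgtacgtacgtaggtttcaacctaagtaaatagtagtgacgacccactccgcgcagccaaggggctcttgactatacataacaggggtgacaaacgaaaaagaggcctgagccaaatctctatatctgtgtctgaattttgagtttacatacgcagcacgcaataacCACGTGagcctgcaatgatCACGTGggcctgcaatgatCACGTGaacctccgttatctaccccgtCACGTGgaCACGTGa
A match describes the letters only.

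Some peak genes were neighbours: 10 pairs lay within 50000 bases of each other. They included the interferon genes Ifi27 and Ifi27l2a on chromosome 12, 1927 bases apart, and Oas1a and Oas1d on chromosome 5, 7014 bases apart. G6pc2 and Abcb11 on chromosome 2 lay 10440 bases apart, and Deaf1 and Tmem80 on chromosome 7, on opposite strands, 48 bases apart.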

How the data were processed

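RNA was sequenced from 12 samples of male mouse germ cells, 3 per stage, using SMART-seq v4 amplification and TruSeq mRNA library preparation per the labels' protocols. The submitters' processing notes name bcl2fastq 2.20, cutadapt 1.18, HISAT2 2.1.0, featureCounts 1.5.2 and DESeq2 1.26.0, and the builds mm10 and GRCm38. The authors deposited 1 signal table of 55487 genes: read counts divided by a size factor of each library. Multiplying each value by its library's factor gave whole reads for 100% of values within 0.001, so reads were recovered. Strand setting, annotation release and the handling of multiply matched reads are not given in the sources used here, so overlapping and antisense genes cannot be told apart.

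limma 3.58.1 (lmFit, eBayes with trend; R 4.3.3) was run on log2(normalized count + 1) for genes with at least 10 in at least 3 libraries, with 4 stages sharing the spread and a Benjamini-Hochberg adjusted p under 0.05. Fold changes understate those of low genes. edgeR 4.0.16 and DESeq2 1.42.0 were run on recovered reads, and the methods were tested on simulated data. Columns carry numbers that do not match the titles' replicate numbers, so they were assigned to stages only. Positions and shared 50-base words come from GENCODE M21 on GRCm38, promoters from RefSeq.

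Named genes were Morc1; the 12 peaks with the widest gap and the 6 most abundant; the 8 dips with the widest gap and the 4 most abundant in another stage; members in the lists; and the genes nearest the threshold on either side. Predicted genes, clones and pseudogenes were counted only (64 peaks and 1 dip). Further genes named with a list were chosen after their values were seen. Members and lists were chosen with earlier results of these data known, and 6 lists (lymphocyte, hepatocyte, axoneme, interferon, ERK and cholesterol) were chosen once these values were known. Alternatives were a block on column number, other scalings, folds, levels, pseudocounts, filters and tools, and leaving out each library.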

Additional observations from a re-analysis of the deposited data

How the results depend on the processing

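The titles' replicate numbers are not those of the columns (1, 3 and 4). With the column number as a replicate block, a choice made after seeing the data, 2039 genes were higher and 1300 lower than at each other stage, and no count moved by over 1.5 times. Same-numbered libraries shared only a number: their deviations correlated at -0.0356 to 0.0423 over 18 pairs, and a library correlated best with its own number in 9 of 36 cases. Against 325 peaks and 81 dips, equal library totals gave 203 and 169 (160 and 52 shared), a fold of 1.5 gave 692 and 253, a fold of 3 gave 128 and 13, and a fold of 4 gave 81 and 5. A highest stage mean of at least 10 gave 534 and 146, at least 1000 gave 145 and 47, and stage means in place of libraries gave 515 and 229. Factors from TMM kept 292 peaks and 73 dips, median-of-ratios 255 and 65, and poscounts, a choice made after seeing the data, 323 and 77. Leaving out each library in turn gave 326 to 380 peaks and 81 to 118 dips, the most without E16.5 library 4. The rule compares every library, so leaving a library out can only loosen its fold condition. Members are then lost only through the level cut-off, and these counts could hardly fall. With each library left out, genes higher than at each other stage numbered 1700 to 2062 and lower ones 1149 to 1333. Requiring a log2 difference of 1 or more in size gave 798 higher and 335 lower, and equal totals gave 2462 lower. Of the single contrasts, a mean of at least 100 left 11459 changed genes between E16.5 and E13.5, 11968 between P0 and E13.5 and 11249 between P3 and P0. The fold limit left 7604 between E16.5 and P0, 10138 between E16.5 and P3 and 10162 between P3 and E13.5. Between P0 and E13.5, equal totals turned Cd68 (0.89), Mest (0.35) and Dmrt1 (0.74), and median-of-ratios factors turned Cd68 (0.22) and Dmrt1 (0.0492). Between P3 and P0, equal totals turned Morc1 (-0.30). Between P3 and E13.5, Dnmt3c, not past the threshold, turned with edgeR (-0.0143) and DESeq2 (-0.0145), and ranged from -0.34 without E13.5 library 3 to 0.33 without E13.5 library 1 (-0.03 without P3 library 3). Ybx3 with poscounts, Dnmt3a with median-of-ratios factors, and Cmpk1 with equal totals missed the 2-fold rule. The cause was not tested. Depth limits genes at the floor.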
